A study of Mus musculus with 2 samples.

Results

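The OAS genes encode the 2'-5' oligoadenylate synthetases and their relatives. A synthetase that binds double-stranded RNA joins ATP into short 2'-5' linked oligoadenylates, called 2-5A. 2-5A is a messenger of the antiviral response. OAS genes are interferon-stimulated genes, and macrophages are among the cells that use this pathway against viruses. The 8 genes described here are Oas1a, Oas1b, Oas1c, Oas1g, Oas2, Oas3, Oasl1 and Oasl2. They were chosen by gene symbol, out of 55536 annotated genes in the tables and out of 12 Oas and Oasl genes in the annotation. Each symbol matched 1 gene identifier. The other 4 Oas1 genes were read as pathway partners.

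The RNA came from C57BL/6J mouse macrophages that had been differentiated in culture from bone marrow. Both libraries had received 100 ng/ml lipid A, the part of bacterial lipopolysaccharide that activates the receptor TLR4, for 50 minutes. They are 2 biological replicates of 1 group, made from ribosomal RNA-depleted total RNA of a fraction described as nucleoplasmic, while other labels say nucleus. Replicate 1 was made from 500 ng of RNA and replicate 2 from 1 µg. Untreated cells were not analysed here, so no value below is a response to lipid A, and no comparison between conditions could be tested.

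The depth was 10395300 expected counts for replicate 1 and 20515408 for replicate 2. Levels are in TPM, transcripts per 1000000, which corrects for transcript length. Each of the 10 macrophage markers reached 10 TPM in both libraries, from Fcgr1, an IgG receptor gene, at 16.8 and 19 TPM to the lysozyme gene Lyz2 at 1461 and 1507 TPM. Of 26 markers of other blood, stromal and endothelial cells, 1 reached 1 TPM in both libraries, the neutrophil gene S100a8 at 1.67 and 1.27 TPM, and 5 had 0 counts. Those 26 genes summed to 7.22 TPM in replicate 1 and 5.41 TPM in replicate 2. In a second deposited quantification, of transcripts with estimated counts, those 26 genes summed to 31.3 and 4.01 TPM. There 1 of the 26 reached 1 TPM in both libraries, the T cell gene Cd3d at 10.4 and 1.05 TPM, where it had 0 and 3 expected counts in the first. The endothelial gene Pecam1 was at 11.6 and 0.587 TPM in the second quantification and at 0.73 and 0.24 TPM in the first. In the second, models annotated as retained intron held 96.7% and 80.9% of Pecam1, and protein-coding models were at 0.379 and 0.112 TPM. The part of other cell types in the values of the members was not tested. In such bulk samples, fewer cells of a type and less RNA per cell cannot be told apart.

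The 8 genes lie on chromosome 5 of mm10 in a pair of groups. Oasl2 (ENSMUSG00000029561.17, chr5:114896936-114912234) and Oasl1 (ENSMUSG00000041827.15, chr5:114923240-114937915) are neighbours on the plus strand, 11.0 kb apart. The other members lie in a stretch of 191 kb that holds all 10 Oas genes. They are Oas2 (ENSMUSG00000032690.16, chr5:120730333-120749853), Oas3 (ENSMUSG00000032661.9, chr5:120753098-120777661), Oas1c (ENSMUSG00000001166.17, chr5:120800194-120812514), Oas1b (ENSMUSG00000029605.16, chr5:120812635-120824163), Oas1g (ENSMUSG00000066861.14, chr5:120876142-120887613) and Oas1a (ENSMUSG00000052776.10, chr5:120896256-120907521). Oas1b is on the plus strand and the other 5 are on the minus strand. Oas1b and Oas1c start back to back, with 120 bases between them.

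How alike the Oas1 genes are sets what can be counted for each, so the first 60 coding bases of the 4 Oas1 members are shown, with capitals where a base differs from Oas1a. They come from GENCODE M21 transcripts on mm10, in the direction of each gene, at chr5:120907417-120907476 for Oas1a, chr5:120887503-120887562 for Oas1g, chr5:120812701-120812760 for Oas1b and chr5:120808704-120808763 for Oas1c.
Oas1a: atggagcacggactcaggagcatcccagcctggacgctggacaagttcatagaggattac
Oas1g: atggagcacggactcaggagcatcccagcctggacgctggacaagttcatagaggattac
Oas1b: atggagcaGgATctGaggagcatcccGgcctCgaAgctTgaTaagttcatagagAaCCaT
Oas1c: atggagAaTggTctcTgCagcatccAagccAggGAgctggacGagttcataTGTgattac
Oas1a and Oas1g had no difference in these bases, and Oas1b and Oas1c had 13 differences each. Over the whole coding sequence Oas1a and Oas1g shared 1065 of 1101 bases, or 96.7%, with no gap. Oas1a and Oas1b shared 81.1% of aligned bases and Oas1a and Oas1c 76.5%. The coding sequences of Oasl1 and Oasl2 shared 64.6%.

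The near-identity shows in the counts. Of the 31-base windows of the Oas1a transcript, 68.7% also occur in Oas1g, while no window of any Oas2 isoform occurs in another gene. In the gene tables the posterior SD of the count, the quantification's own measure of how far reads could be moved between genes, was 5.91 counts in replicate 1 and 12.4 in replicate 2 for both Oas1a and Oas1g. It was 0 for the other 6 members. Among the members' gene-level counts, the split of reads between Oas1a and Oas1g was thus the only one with such an exchange, while counts of single isoforms carry larger posterior SDs, up to 99.2 and 120 counts for Oas2-201.

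At the level of whole genes, Oasl2 was the highest member and Oas1c the lowest in both libraries. The order by TPM, Oasl2, Oas2, Oasl1, Oas1g, Oas1a, Oas3, Oas1b and Oas1c, was the same in replicates 1 and 2. In all, 7 of the 8 members reached 1 TPM in both libraries, where 38.7% of the 22015 nuclear protein-coding genes did so. Oas1b is not among those genes, as the annotation classes it apart. At 10 TPM there were 6 members of 8, against 13.2% of protein-coding genes. The median level of the members, as log2(TPM + 1) averaged over both libraries, was 4.60, beside 2.87 for the 9158 protein-coding genes that averaged 1 TPM or more, called expressed here. The Oas1 genes left out of the members, Oas1d, Oas1e, Oas1f and Oas1h, did not reach 1 TPM in either library. As the members were chosen with earlier results of these data known, their counts and median depend on that choice.

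Oas1a and Oas1g encode single-unit synthetases. Oas1a had 440 and 1211 expected counts in replicates 1 and 2, at 23.5 and 21.03 TPM, a mean of 22.3 ± 1.77 TPM (SD, n = 2). Oas1g had 329 and 895 counts, at 25.7 and 22.9 TPM, a mean of 24.3 ± 1.99 TPM (SD, n = 2). The ranges of the pair overlap, so their order is not separable from the replicate spread, and their reads are the ones that can be exchanged.

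Oas1b is known as the flavivirus resistance gene of mice, and most laboratory strains carry a form with an early stop codon. It was at 4.90 and 5.97 TPM, on 77 and 243 counts, a mean of 5.44 ± 0.757 TPM (SD, n = 2). Oas1c, one of the Oas1 copies of the mouse, was at 0.770 and 0.310 TPM on 18 and 22 counts. A count of 0 would allow up to 0.290 CPM (counts per 1000000 gene counts) in replicate 1 and 0.146 CPM in replicate 2, taking 3 counts as the limit, and Oas1c stood at 1.74 and 1.07 CPM. These limits cover counting error only. The Oas1b and Oas1c ranges do not overlap with each other or with any other member.

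Oas2 and Oas3 are built from repeats of the OAS unit, and Oas3 prefers long double-stranded RNA. Oas2 was at 110 and 56.0 TPM, on 4240 and 6567 counts, a mean of 82.8 ± 37.9 TPM (SD, n = 2). Oas3 was at 18.6 and 14.04 TPM, on 867 and 1724 counts, a mean of 16.3 ± 3.20 TPM (SD, n = 2). The lower Oas2 library was above the higher Oas3 library. The opposite-strand gene Gm43068 overlaps Oas2 over 1273 bases and held 38 and 130 counts. As the strand setting of the counting is not given in the sources used here, reads of the pair cannot be told apart with certainty in that stretch.

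The OAS-like genes carry ubiquitin-like domains behind the OAS unit. Oasl1 has lost synthetase activity and is known to hold back translation of Irf7 mRNA, whereas Oasl2 is still an active synthetase. Oasl1 was at 100 and 39.1 TPM, on 1414 and 1736 counts, a mean of 69.6 ± 43.1 TPM (SD, n = 2). Oasl2 was at 237 and 121 TPM, on 3722 and 5692 counts, a mean of 179 ± 82.1 TPM (SD, n = 2). The lower Oasl2 library was above every library of every other member, while the Oas2 and Oasl1 ranges overlap. Oasl2 held 45.6% of the summed TPM of the 8 genes in replicate 1 and 43.1% in replicate 2, and stood above 98.0% of the expressed protein-coding genes.

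**Figure D1:**
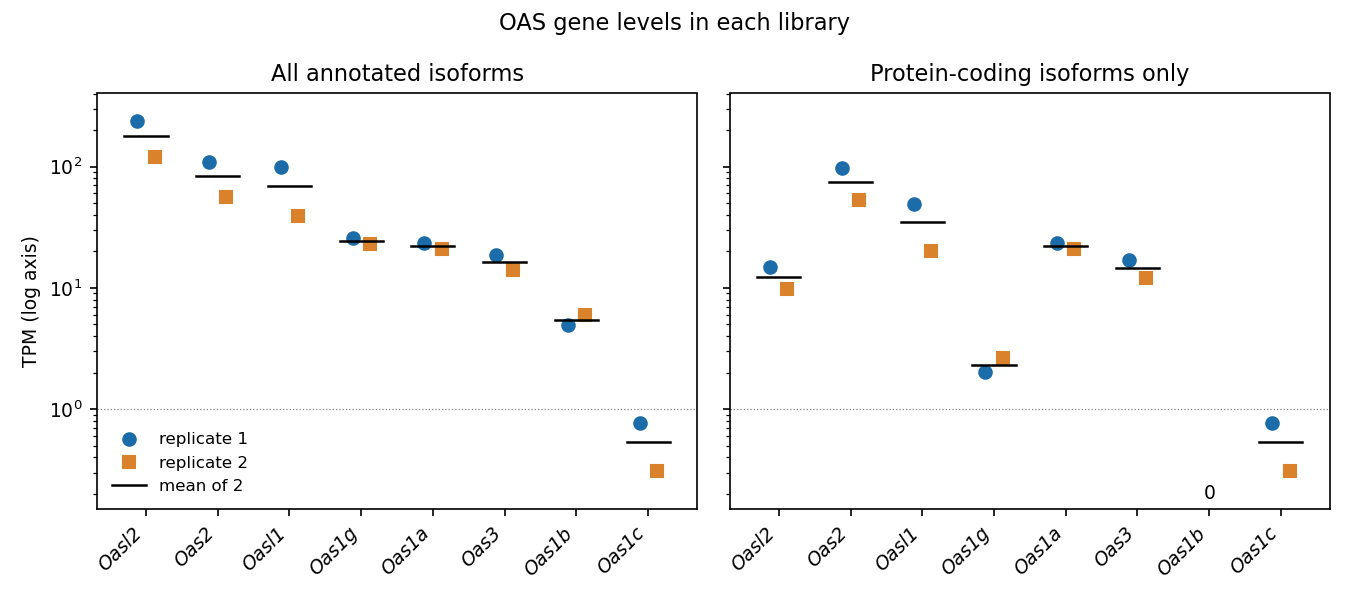
TPM of each OAS gene on a log axis, with 1 circle for replicate 1, 1 square for replicate 2 and a bar for their mean, from all annotated isoforms (left) and from protein-coding isoforms only (right). Oasl2 leads on the left at 237 and 121 TPM and lies at 14.99 and 9.72 TPM on the right, where Oas2 leads and Oas1b is listed at 0.

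A large part of this signal sat on isoform models that are not annotated as protein-coding, and the part differed between members. GENCODE annotates such models as retained intron, nonsense-mediated decay (a reading frame that ends early, which marks an mRNA for degradation) or processed transcript (no open reading frame). The noncoding isoform share is the percent of a gene's transcript TPM in such models, for expressed protein-coding genes with at least 1 of them. Of the members 5 qualified, and their median share was 49.6%, beside 32.2% over the 7677 qualifying genes. That median is the share of Oasl1, and the 5 ranged from 8.45% for Oas2 to 92.8% for Oasl2, as means of both libraries. Shares of at least 50% in both libraries were seen for 2 of the 5, Oasl2 and Oas1g, where 20.9% of qualifying genes had them. By share of expected counts, which gives short models less weight, the members' median was 22.5%, beside 16.6% over the qualifying genes. The share also depends on which models are annotated. Noncoding models were 5 of 9 for Oasl2, 1 of 4 for Oas2 and 0 of 1 for Oas1a. Differences between members are thus not a direct measure of isoform use. Nuclear RNA can hold incompletely spliced transcripts, and their part in these shares was not tested.

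Oasl2 had the highest share among the 5 qualifying members by TPM in both libraries. By expected counts Oas1g stood above it in replicate 1, at 87.8% against 86.9%. Noncoding models held 93.7% of its TPM in replicate 1 and 92.0% in replicate 2, more than in 98.6% of the qualifying genes. The retained-intron models together held 60.9% and 63.4%, the nonsense-mediated decay model Oasl2-205 held 32.7% and 28.6%, and protein-coding models held 6.33% and 8.04%. By expected counts the protein-coding models of Oasl2 held 13.1% and 16.2%.

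The full-length coding model Oasl2-201 has 6 exons over 3123 bases and took 489 and 906 counts. The model Oasl2-208 took 1073 and 1551 counts, or 28.8% and 27.2% of the gene's counts. It is a single exon of 2108 bases at chr5:114901834-114903941, has no base in an exon of Oasl2-201, and lies within its intron 3. Of its bases 101 form an exon of the incomplete coding model Oasl2-202, which took 0 counts in replicate 1 and 14.7 in replicate 2, and 10.6 and 47.7 counts in the second quantification. Of its 31-base windows 2.65% occur in other genes. Its posterior SD of the count was 0 in both libraries. The counts of Oasl2-208 are thus reads from inside the gene's span but outside the exons of the full-length mRNA.

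The other retained-intron models of Oasl2 join an exon to part of an intron. Oasl2-204 runs 253 bases into intron 2 and took 239 and 472 counts. Oasl2-203 holds 402 bases of the end of intron 3 and took 191 and 299 counts. Oasl2-209 runs 488 bases into intron 1 and took 161 and 305 counts. All 4 retained-intron models therefore held counts in both libraries, and together they cover parts of introns 1, 2 and 3.

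Oasl2-205 took the most counts of any Oasl2 model, 1569 and 2145. It begins within exon 1, is annotated as incomplete, and joins exon 1 to exon 3 without the 289 bases of exon 2, a length that is not a multiple of 3. The junctions that set it apart from Oasl2-201 are shown as mRNA, with exon 1 in lower case and the next exon in capitals. They run over chr5:114897848-114899756 and chr5:114897848-114901254 on the plus strand, introns included. The boundary sequence, at chr5:114900016-114900045, lies inside Oasl2-204 and has the end of exon 2 in lower case and the intron that is kept in capitals.
Oasl2-201: attaaggtggtgaagGGAGGCTCCTCGGGA
Oasl2-205: attaaggtggtgaagGACCTATTTCCAGAG
Oasl2-204: cttacgatgctttggGTAAATCCAGTGGAA
The tables give counts per model and not per junction, so the number of reads over either junction was not measured here. Outside exon 2 the 2020 bases of Oasl2-205 are all contained in Oasl2-201, and the posterior SD of its count was 28.0 and 37.7.

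**Figure D2:**
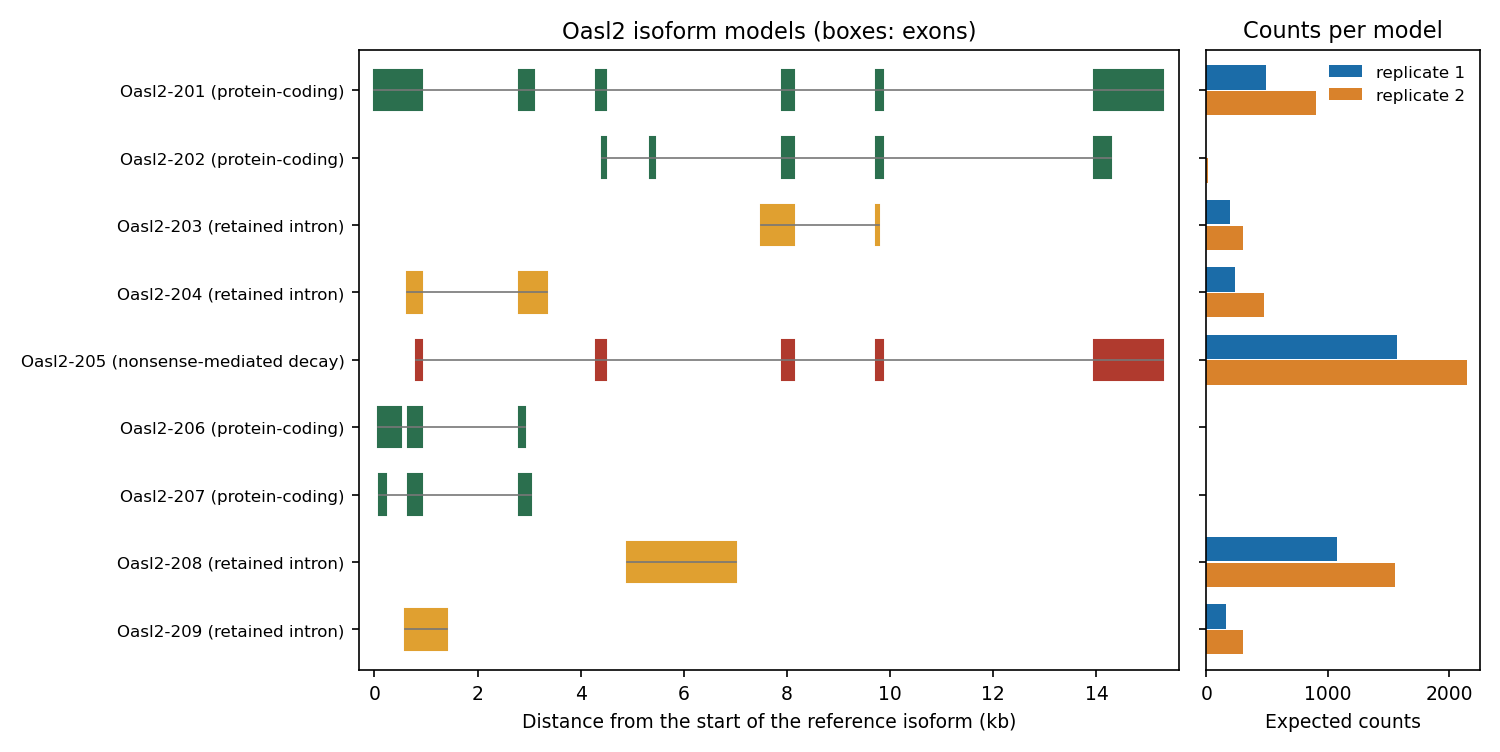
Left, exons (boxes) of the 9 annotated Oasl2 models by distance in kb from the start of Oasl2-201, coloured by class. Right, expected counts of each model in replicates 1 and 2, where Oasl2-205 and the single-exon model Oasl2-208 hold the most counts and Oasl2-206 and Oasl2-207 hold none.

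Oas1g was the other qualifying member with most of its TPM on noncoding models, 92.1% and 88.6%. By expected counts these shares were 87.8% and 82.3%. Its nonsense-mediated decay model Oas1g-203 held 68.7% and 60.1% of TPM on 252 and 608 counts, and the retained-intron model Oas1g-202 held 23.5% and 28.5% on 37.2 and 129 counts. The coding model Oas1g-201 took 40.0 and 159 counts, at 2.03 and 2.62 TPM. Oas1g-203 extends exon 3 by 61 bases into the following intron, and its annotated coding sequence has 702 bases, against 1101 in Oas1g-201. The start of that extension (chr5:120881870-120881899, minus strand) is shown with the exon in lower case and the intron in capitals.
Oas1g-203: cactggtaccaactgGTAAGGCATCGGCCC
Of the 31-base windows of Oas1g-203, 64.7% also occur in Oas1a. Oas1a has 1 annotated model, so its noncoding share is 0 by annotation, and the shares of the pair cannot be compared.

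By TPM Oasl1 was divided more evenly than Oasl2, but by expected counts its protein-coding models held 76.6% and 78.4%. By TPM its protein-coding models held 49.2% and 51.6% of TPM and the retained-intron model Oasl1-204 held 50.8% and 36.6%, on 331 and 298 counts. The main coding model Oasl1-202 took 1027 and 1169 counts. The processed transcript Oasl1-205 took 0 and 75.2 counts, and with a posterior SD of 7.84 and 18.0 this assignment differed between the libraries. Oasl1-204 keeps 403 bases of intron 4 of Oasl1-202, whose beginning (chr5:114932950-114932979, plus strand) follows with the exon in lower case and the intron in capitals.
Oasl1-204: gctcaggggacaaagGTACTGGGTCTGTGC

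Oas2 and Oas3 were mostly on coding models. For Oas2 these held 88.0% and 95.1% of TPM, with Oas2-201 at 73.2 and 41.7 TPM and Oas2-202 at 21.7 and 8.56 TPM. The retained-intron model Oas2-204, which keeps 357 bases of intron 8, held 11.96% and 4.95% on 317 and 205 counts. For Oas3 coding models held 92.0% and 85.3%, led by the 16-exon model Oas3-201 on 829 and 1543 counts. The retained-intron model Oas3-204, which covers intron 13 whole, took 31.5 and 101 counts. The short coding model Oas3-202, annotated as incomplete, held 3.66% and 13.8% of TPM. It is counted as coding, though it covers intron 15 of Oas3-201 whole, 180 bases.

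The annotation of Oas1b reflects its early stop codon. The gene is classed as a polymorphic pseudogene, meaning that it codes in some strains and not in the reference strain. Its model Oas1b-203 has an annotated frame of 376 codons with an in-frame stop at codon 253, counted from the ATG as 1. The stop is shown in capitals (chr5:120821293-120821322, plus strand), and the frames of Oas1a, Oas1g and Oas1c hold no such stop.
Oas1b: acagcccagggcttcTGAaccgtcttggaa
Oas1b-203 held 83.1% and 64.8% of the gene's TPM, on 73.9 and 217 counts, and the processed transcript Oas1b-202 held the rest on 3.15 and 26.4 counts. The model Oas1b-201, annotated as protein-coding, had 0 counts in both libraries and both quantifications. Of its 1832 bases 1829 lie in exons of Oas1b-203, and the posterior SD of its count was 6.24 and 6.02, so the 0 is a choice between near-identical models and not a measurement of a separate RNA. Oas1c had all its counts on the coding model Oas1c-201.

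**Figure D3:**
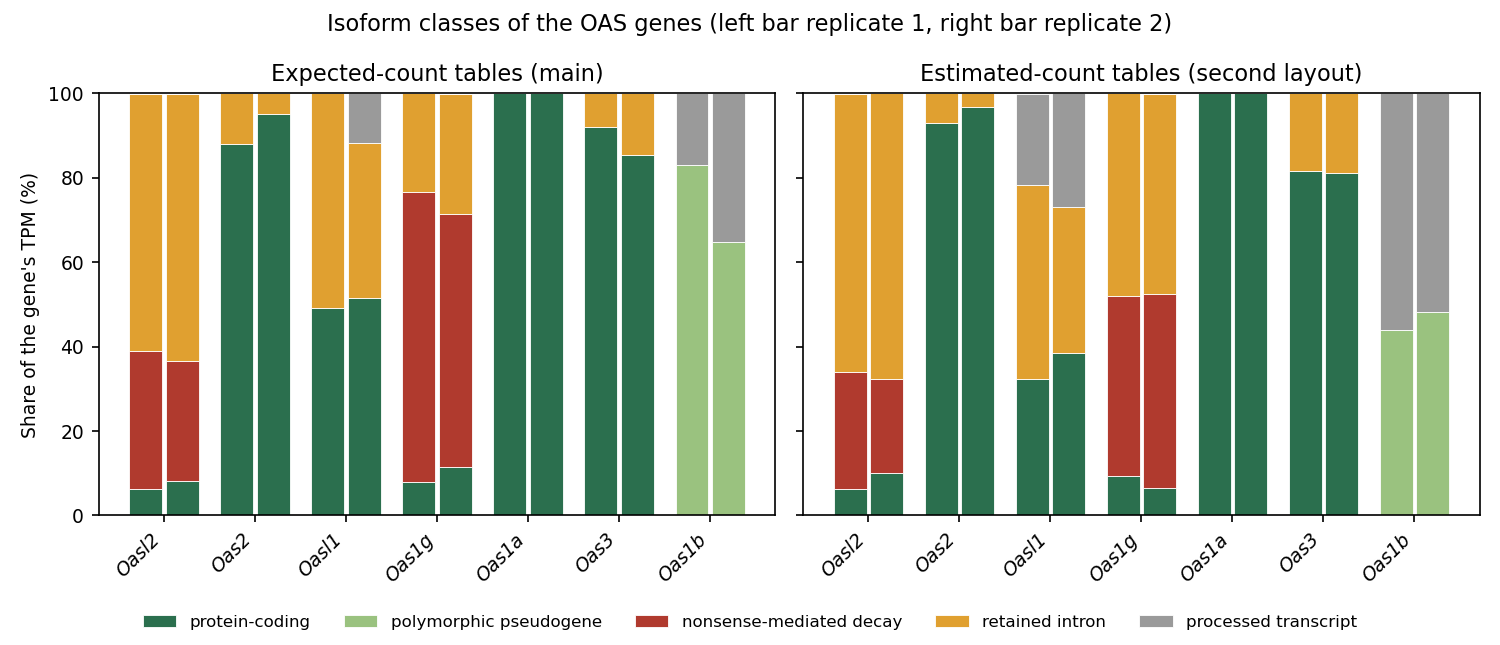
Share of each gene's TPM by isoform class (stacked bars to 100%, left bar replicate 1 and right bar replicate 2) in the expected-count tables and in the second, estimated-count tables, for the 7 members above 1 TPM. Oasl2 and Oas1g are mostly retained intron and nonsense-mediated decay in both panels, while the classes of Oas1g and Oas1b change order between the panels.

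Counting protein-coding models only changed the order of the members. Oas2 then led at 96.5 and 53.2 TPM, and Oasl1 was at 49.2 and 20.2 TPM. Oas1a stayed at 23.5 and 21.03 TPM, as it has 1 model. Oas3 was at 17.1 and 11.98 TPM, Oasl2 at 14.99 and 9.72 TPM and Oas1g at 2.03 and 2.62 TPM. The ranges of Oasl1 and Oas1a overlapped, and so did those of Oas3 and Oasl2. The 8 genes summed to 520 and 280 TPM over all models and to 204 and 119 TPM over protein-coding models. On this scale 6 of the 8 reached 1 TPM in both libraries, all but Oas1b and Oas1c, where 34.7% of protein-coding genes did so.

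The second quantification, in the column layout of kallisto, gave TPM values with a median ratio to the first of 0.799 in replicate 1 and 0.301 in replicate 2 over expressed protein-coding genes. The ratio of the members lay between 0.426 and 1.88 in replicate 1 and between 0.228 and 0.575 in replicate 2, and the value above 1 belongs to Oas1b. Oasl2 again led, at 155 and 32.2 TPM, and on protein-coding models Oas2 again led, at 55.6 and 12.8 TPM. Noncoding models held 93.9% and 89.9% of Oasl2 there and 90.7% and 93.5% of Oas1g. For Oasl1 they held 67.6% and 61.5%, with 321 and 354 counts on the processed transcript Oasl1-203, which had 0 and 2.71 counts in the first quantification. For Oas1b the processed transcript Oas1b-202 held 56.1% and 51.8% of TPM, so its leading model differed between the quantifications. The leading model of Oas1g by TPM differed too, with the retained-intron model Oas1g-202 at 48.0% and 47.6% and the nonsense-mediated decay model Oas1g-203 at 42.6% and 45.9%. By estimated counts Oas1g-203 still led there, with 392 and 859 counts against 190 and 401.

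The replicates were compared after division by the median TPM ratio, since replicate 2 stood 0.69 (log2) lower than replicate 1 over all 11380 genes tested. Of the members 0 of 7 with a mean TPM of at least 1 were more than 2-fold apart, where 9.90% of all genes were. Oas1b was 0.98 (log2) higher in replicate 2, with a 95% exact counting interval of 0.60 to 1.37 that spans the 2-fold line. Oas1a and Oas1g were 0.53 and 0.52 higher and Oas3 0.29 higher, each on the log2 scale. Oas2, Oasl2 and Oasl1 had log2 values of -0.28, -0.28 and -0.66, with an interval for Oasl1 of -0.76 to -0.56. So 4 members lay above the median ratio and 3 below, and after that division none of the 7 intervals includes 0. This depends on the scaling, as Oas3 stood at 83.8 and 84.1 CPM. No intervals were made with other scalings. Without that division TPM was lower in replicate 2 for all members but Oas1b, and Oasl1, with a log2 ratio of -1.35, was then past 2-fold, as were 28.6% of all genes tested. With 1 library a side there is no test of these differences, and the difference in RNA input moved with the replicates, its part not tested.

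**Figure D4:**
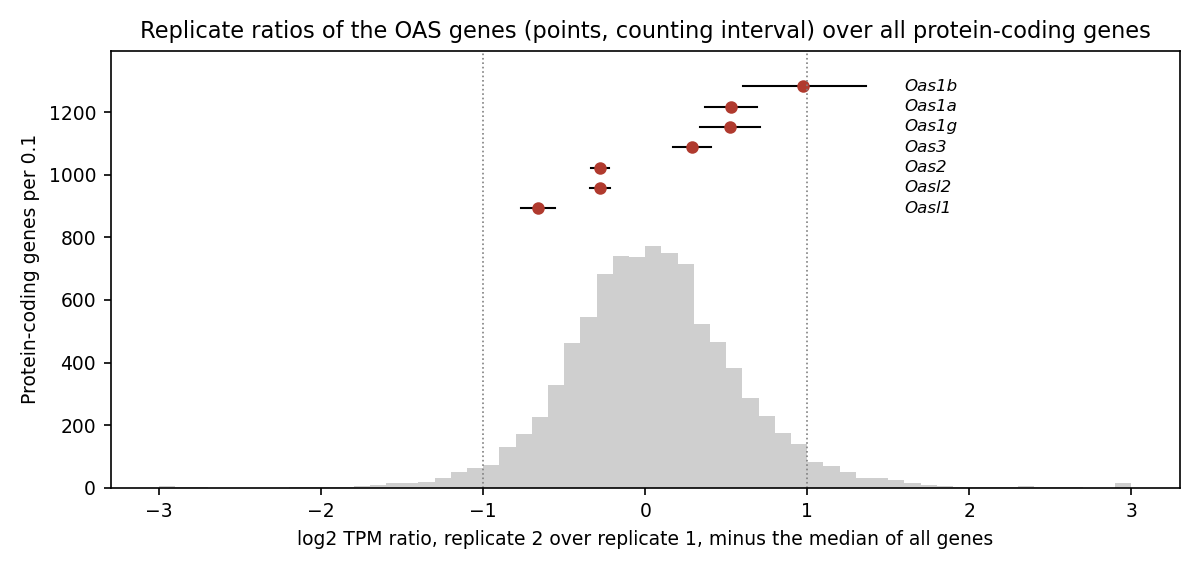
log2 TPM ratio of replicate 2 to replicate 1 minus the median over all genes tested, as a histogram of 9147 expressed protein-coding genes (grey, values past 3 drawn at 3) and as points for 7 OAS genes with their 95% counting intervals (height of the points has no meaning). All 7 points lie between the dotted 2-fold lines, from Oasl1 at -0.66 to Oas1b at 0.98.

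The partners of the 2-5A pathway were measured beside the members. Of the 8 counted, 4 reached 1 TPM in both libraries, and 2 did so in the second quantification. Of all nuclear protein-coding genes 38.7% did so in the first, which gave the values that follow. Abce1, a gene that serves ribosome recycling, was at 8.88 and 6.13 TPM. Pde12 and Akap7 encode proteins with phosphodiesterase activity against 2-5A. They were at 2.87 and 2.09 TPM and at 13.8 and 4.26 TPM. Cgas, which encodes the DNA sensor with an OAS-like fold, was at 6.29 and 3.66 TPM. The remaining Oas1 copies Oas1d, Oas1e and Oas1f had 0 expected counts, and Oas1h was at 0.18 and 0.33 TPM on 3 and 17 counts.

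The neighbouring pathways were measured in the same libraries. All 8 other double-stranded RNA sensors and effectors reached 1 TPM in both, from Mavs, the mitochondrial adaptor of RNA sensing, at 3.39 and 1.73 TPM to Ifih1, which encodes the sensor MDA5, at 371 and 187 TPM. All 11 interferon signalling genes did so, from the ISGF3 subunit gene Irf9 at 22.6 and 15.8 TPM to the transcription factor gene Irf1 at 262 and 296 TPM. All 14 other interferon-stimulated genes did so, from the exonuclease gene Isg20 at 4.04 and 2.08 TPM to the antiviral gene Rsad2, which encodes viperin, at 524 and 245 TPM. In the second quantification 7 of the 8, all 11 and 13 of the 14 reached 1 TPM in both libraries. Of all nuclear protein-coding genes 38.7% did so in the first quantification, and the share in the second was not computed. The lists were chosen with earlier results of these data known. In the first, noncoding models held 76.9% and 71.3% of Ifih1 TPM. On protein-coding models Ifih1 was at 85.9 and 53.6 TPM, below Zc3hav1 at 103 and 57.9 TPM. The median levels of these 3 lists, as log2(TPM + 1), were 4.96, 5.60 and 5.12, beside 4.60 for the OAS members.

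The promoters of the members were searched for the core of the interferon-stimulated response element, GAAANNGAAA, on both strands, since the factors that carry the interferon signal bind such sites. The windows run from 250 bases before to 50 bases after each start in RefSeq, build GRCm38.p6, and 6 of the 8 members had one. Of these 4 held a match, Oas1a, Oas1g, Oas1c and Oas3, and Oasl1 and Oasl2 held none. Over all 32851 windows 3.44% held a match. Capitals mark the matches, and in Oas1a, Oas1g and Oas1c 2 overlapping matches make 16 capitals. The sequences are on the minus strand, in the direction of the named gene, at chr5:120907526-120907560, chr5:120887614-120887646, chr5:120812598-120812643 and chr5:120777710-120777749.
Oas1a: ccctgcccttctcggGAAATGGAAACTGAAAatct
Oas1g: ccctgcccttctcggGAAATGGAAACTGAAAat
Oas1c: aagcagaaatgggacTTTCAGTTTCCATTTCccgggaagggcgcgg
Oas3: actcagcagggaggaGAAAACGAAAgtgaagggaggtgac
The match of Oas1a begins 20 bases before its start and that of Oas3 begins 75 bases before. In Oas1c the match is on the opposite strand, 114 to 99 bases before the start of Oas1c. Read the other way, the same bases lie 22 to 7 bases before the annotated start of Oas1b. In that direction they are the same 16 bases as the capitals of Oas1a and Oas1g. All 33 bases printed for Oas1g also occur in those of Oas1a. The 4 members with a match are thus not 4 independent cases to set beside the 3.44% of windows. Mean TPM was 22.3 for Oas1a, 24.3 for Oas1g, 0.540 for Oas1c and 16.3 for Oas3, which held a match. For Oas1b, which had no window of its own, it was 5.44. It was 69.6 for Oasl1 and 179 for Oasl2, which held none. Whether a match goes with the level was not tested. A match is a stretch of letters and not a measured binding site, and the lack of one says only that these letters are not in the window.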

How the data were processed

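The authors deposited, per library, gene and transcript tables of expected counts and TPM with RSEM's columns, and a transcript table of estimated counts and TPM with those of kallisto, per the file headers. The same deposited tables give the posterior SD of counts. The authors' readme files name mm10 and annotation M21. Program versions and filters were not given in the sources used here, nor were trimming and the strand setting. Gene totals were 10342882 and 20495545 expected counts, and 0.504% and 0.0968% of counts lay in rows that name no gene, which were left out of CPM.

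The members and gene lists were chosen with earlier results of these data known. Members were named with each isoform holding at least 10% of TPM in either library and quantification, the genes of the pathway partner list were named, except 1 that is not reported here, and of other lists the highest and lowest gene. Oasl2-201, Oas1g-201 and Oas1b-201 were given as reference models. Levels were log2(TPM + 1), a scale that understates differences among low genes. The labels give 1 group, so values are descriptions with mean ± SD over 2 libraries, and 95% intervals of count ratios are exact binomial (Clopper-Pearson) intervals. They cover counting error alone, because without molecular identifiers several reads can come from 1 molecule. The labels name biological replicates and 1 strain, so the spread is between these 2 samples. Isoform structures came from GENCODE M21, and coding sequences were aligned globally with Biopython 1.88. Alternatives used edgeR 4.0.16 TMM and DESeq2 1.42.0 size factors on expected counts rounded to whole numbers, other scales and each library alone.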

Additional observations from a re-analysis of the deposited data

How the results depend on the processing

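No paired analysis was possible because the series holds 1 group, so no other group shares the replicate numbers. The count of 7 members at 1 TPM or more was also 7 with the second quantification and with each library alone. It was 8 at 1 CPM and 8 with TPM rescaled over nuclear protein-coding genes. At a threshold of 10 TPM it was 6, beside 13.2% of nuclear protein-coding genes. Over protein-coding isoforms only it was 6, beside 34.7%. For this count of members, shares of all genes under the other alternatives were not computed. The median level of the members, 4.60, was 3.63 with the second quantification, 6.04 in CPM, 6.80 with TPM rescaled over nuclear protein-coding genes and 3.82 over protein-coding isoforms only, an alternative chosen after seeing the data. Over expressed protein-coding genes the same scales gave 2.24, 4.28, 4.94 and 2.38, so the members' median was above theirs each time. That comparison depends on the choice of members, which leaves out Oas1 genes with few or no counts. With 1 library it was 4.52 to 4.68. The median noncoding isoform share, 49.6%, was 64.6% with the second quantification, 30.5% with no minimum on TPM, 26.0% for retained introns only and 22.5% by expected counts, the last also chosen after seeing the data. Over the qualifying genes the median was 45.1% with the second quantification, 18.6% for retained introns only and 16.6% by expected counts. Having no minimum on TPM adds Oas1c, whose share was 0%, and no median over all genes was made for that setting. The members' median share thus depends on whether Oas1c is counted. With 1 library the members' median share was 48.4% to 50.8%. The number of members past 2-fold between replicates was 0 with TMM, size factors, no filter and the second quantification. The shares of all genes tested were 8.42%, 8.27%, 19.67% and 14.98% in the same order. With no centring it was 1 member, Oasl1, beside 28.6% of all genes tested. As only 7 members were tested, or 8 with no filter, a count of 0 cannot set them apart from all genes. In CPM, which has no length correction, Oas2 stood above Oasl2 in both libraries. Depth limits Oas1c most, with 18 and 22 counts.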
